A study of Mus musculus with 6 samples.

Results

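The genes described here are 32 genes of cholesterol and fatty acid synthesis and of their control, given as a list of symbols with 3 roles: 15 sterol synthesis enzymes, 6 genes of sterol sensing and transport and 11 fatty acid synthesis enzymes. All 32 had a row among the 43280 rows of the deposited count table, and all 32 passed the minimum of 10 counts summed over the libraries, as did 18606 rows in all. They were measured by bulk RNA-seq of submandibular glands (SMGs), a pair of major salivary glands, from adult female mice, with 3 libraries labelled wildtype (WT 1, WT 4 and WT 5) and 3 labelled Hs3st3a1;Hs3st3b1 double knockout (DKO 1, DKO 4 and DKO 5). Hs3st3a1 and Hs3st3b1 encode 3-O-sulfotransferases that modify heparan sulfate, and the comparison asks which transcripts differ when both are disrupted. Per the study, the DKO mice carried a frameshift deletion in exon 1 of Hs3st3a1, made with zinc finger nucleases in embryos heterozygous for an Hs3st3b1 allele that holds a LacZ cassette, in single-knockout stock on a C57BL/6 background, and the controls were WT littermates. Several founder lines were kept, and which of them gave these glands, the exact age and whether the 3 glands of a genotype came from separate mice are not given in the sources used here, so that p-values measure only the spread between these samples.

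Cells make cholesterol from acetyl-CoA through the mevalonate pathway, and fatty acids from the same precursor through malonyl-CoA. Both routes are switched on by the SREBP transcription factors (genes Srebf1 and Srebf2), which are held in the endoplasmic reticulum by INSIG proteins when sterols are plentiful and are escorted by SCAP to the Golgi for cleavage when sterols are scarce. SREBP-2 acts mainly on sterol genes and SREBP-1c mainly on fatty acid genes. Because cleavage controls these factors, their transcript level does not report their activity.

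Total counts ran from 23674258 to 29611975 per library, and no 2 libraries of the same group were close enough to be 1 library deposited more than once. The targeted genes did not separate the groups. Hs3st3a1 had 15, 11 and 15 raw counts in WT 1, 4 and 5 and 11, 8 and 13 in DKO 1, 4 and 5. Hs3st3b1 had 173, 203 and 261 raw counts in the WT libraries and 255, 120 and 189 in the DKO libraries. By quantitative PCR the study found neither gene expressed in adult DKO glands of either sex, unlike the counts here, and the reason for the difference was not tested. A short deletion or an inserted cassette can leave reads on a row, and where the reads fell within these genes was not analysed here, so these counts do not check the labels. Over all rows, DESeq2's Wald test called 539 of 18606 at an adjusted p under 0.05, 189 higher and 350 lower in DKO, while scaling by total counts gave 62 higher and 1410 lower. Of the marker lists, acinar genes were called higher for 3 of 8, and lower were 5 of 10 duct, 6 of 6 myoepithelial, 2 of 7 fibroblast and endothelial and 2 of 7 lymphocyte and macrophage genes. The fibroblast and endothelial list went both ways, with 2 genes higher and 3 lower at an unadjusted DESeq2 p under 0.05. Of the acinar genes 2 had a log2 fold change below 0, and of the duct genes 1 was above 0. No gene of the skeletal muscle list (5 tested) or of the sebaceous and keratinising epithelium list (2 tested) was called by DESeq2, edgeR or limma-voom, and none had an unadjusted DESeq2 p under 0.05. Summed myoepithelial markers had 9924 to 10788 normalized counts in WT and 5370 to 7083 in DKO. The groups overlapped for the summed acinar markers (8372990 to 10197600 in WT, 10035100 to 12278900 in DKO). They also overlapped for the summed duct markers (227663 to 276175 in WT, 228252 to 298858 in DKO). The fibroblast and endothelial sum and the lymphocyte and macrophage sum overlapped too. In bulk tissue, fewer cells of a type and less RNA per cell cannot be told apart, and the part of cell makeup in the values that follow was not tested.

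One member passed the test. Scap, the escort of the SREBPs, was 1.26-fold higher in DKO (95% Wald interval 1.11 to 1.44), and no member was called lower. That is 3.12% of the 32 members, beside 2.90% of all rows tested called in either direction (1.02% higher and 1.88% lower), so the share of members called was close to that of all rows. With edgeR's quasi-likelihood test and with limma-voom 0 members were called, beside 0.0537% and 0.0376% of all rows. At an unadjusted p under 0.05, DESeq2 gave 4 members (Scap, Srebf2, Fasn and Fads1), which is 12.5% beside 12.2% of all rows, and edgeR gave 4, which is 12.5% beside 15.0%.

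The fold changes of the members were small. The log2 fold change of DKO over WT had a median of -0.13 over the 32 members, beside 0.00 over all rows, and ran from -0.56 for Idi1 to 0.33 for Scap. It was below 0 for 24 members (75.0%), beside 49.8% of all rows and 46.4% of the rows whose mean count reached that of the lowest member. The 95% interval lay inside a 2-fold change in both directions for 30 of the 32 members and inside a 1.5-fold change for 18. The exceptions to the wider bound were Idi1, whose interval reached -1.17, and Insig1, whose interval reached -1.08. For the other 14 members a 1.5-fold difference lay within the interval.

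**Figure D1:**
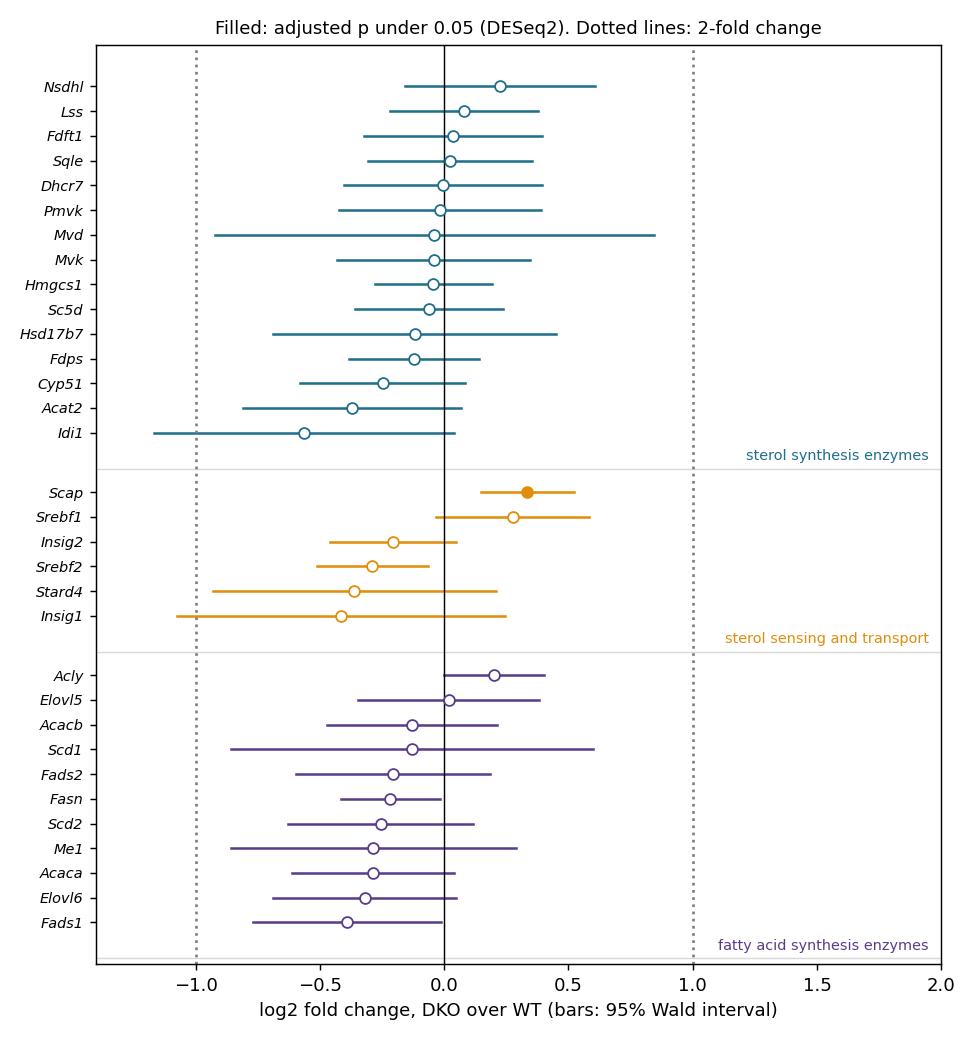
Log2 fold change of DKO over WT (x axis) for each of the 32 members (y axis), grouped by role, with bars for the 95% Wald interval of the DESeq2 fit on 3 WT and 3 DKO libraries. Scap, at 0.33, is the filled point with an adjusted p under 0.05, and 24 of the points lie below 0.

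The libraries of the groups did not overlap for 8 members (25.0%), beside 20.3% of all rows. Higher in every DKO library were Scap and Acly, 6.25% of members beside 9.85% of all rows. Lower in every DKO library were Idi1, Insig2, Srebf2, Fasn, Fads1 and Fads2, 18.8% beside 10.5%. Of these 8, only Scap passed the DESeq2 test.

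Upstream sequence was read for the genes whose regulation the description turns on. RefSeq promoters on GRCm38.p6, from 250 bases before to 50 after each start site, were matched by symbol for 25 of the 32 members. No promoter was matched for Fdps, Fdft1, Sqle, Stard4, Scd1, Scd2 or Fads1, so the shares below leave these genes out. Both strands were searched for TCACNCCAC (a form of the sterol element bound by SREBPs), CCAAT (bound by NF-Y), CACGTG (the palindromic E-box) and GGGCGG (the GC box bound by Sp1). Matches of different motifs may share end letters, which none of the printed matches do. The 250 bases before the start are given for Scap, the member called, for Srebf2, and for Hmgcs1, the member with a match to the sterol element, with matches to the sterol element, CCAAT and the E-box in capitals on either strand. The 250 bases before the first Scap start site, chr9:110333038-110333287 (+), held no match to those motifs and are not printed. The printed ones lie at chr9:110333106-110333355 (+, the second of 2 Scap start sites), chr15:82147019-82147268 (+) and chr13:119690101-119690350 (+).
Scap: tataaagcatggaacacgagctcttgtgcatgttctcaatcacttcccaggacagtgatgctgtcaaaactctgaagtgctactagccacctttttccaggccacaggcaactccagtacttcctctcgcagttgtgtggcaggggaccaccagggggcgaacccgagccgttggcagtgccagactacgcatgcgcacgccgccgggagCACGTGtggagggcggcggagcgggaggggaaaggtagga
Srebf2: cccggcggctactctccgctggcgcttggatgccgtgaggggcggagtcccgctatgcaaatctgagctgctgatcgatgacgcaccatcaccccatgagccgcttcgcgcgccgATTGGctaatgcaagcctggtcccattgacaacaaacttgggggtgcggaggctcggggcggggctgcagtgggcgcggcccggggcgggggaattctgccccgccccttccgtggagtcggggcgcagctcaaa
Hmgcs1: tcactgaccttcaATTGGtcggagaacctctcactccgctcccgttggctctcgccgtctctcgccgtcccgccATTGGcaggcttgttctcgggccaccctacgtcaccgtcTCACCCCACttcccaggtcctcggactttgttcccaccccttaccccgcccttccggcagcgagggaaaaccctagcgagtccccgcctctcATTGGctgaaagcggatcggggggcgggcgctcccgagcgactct

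The printed Scap sequence holds 1 E-box, the Srebf2 sequence 1 CCAAT on the reverse strand, and the Hmgcs1 sequence 1 sterol element and 3 CCAAT matches. Over the 25 members, CCAAT was found in 20 (80.0%), beside 41.1% of 27025 genes, and the GC box in 19 (76.0%), beside 38.2%. The E-box was found in 6 (24.0%), beside 8.09%, and the sterol element in 1 (4.0%), beside 1.44%. The 27025 genes were all those with a promoter sequence, not only those with counts in these libraries. A gene was counted if any of its start sites held the letters. A match is a description of these letters, and a sequence without one says only that the letters are not in this window.

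Levels can be compared between genes only per length, here as normalized counts per kb of exon averaged over the 6 libraries. The length was that of all annotated exons of a gene merged, which can exceed that of its main transcript. The order below therefore holds only for this measure of length. On that scale the gland's most abundant members were the stearoyl-CoA desaturases Scd2 (1291) and Scd1 (1172), which place the double bond in oleate and palmitoleate, and Acly (1124), which makes cytosolic acetyl-CoA from citrate. Insig1 followed at 872 per kb, then Srebf1 (435), Acacb (371), Fasn (257) and Scap (245). The sterol enzyme with the highest value per kb, Hmgcs1, had 150, and the lowest member, Stard4, had 10.8. That rank of Hmgcs1 rests on the exon length. Lss had more normalized counts (mean 904, against 691 for Hmgcs1) but 10787 bp of merged exon against 4594 bp. In this order the libraries' ranges of neighbours overlapped except after Insig1, after Scap and after Fdps (122 per kb).

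**Figure D2:**
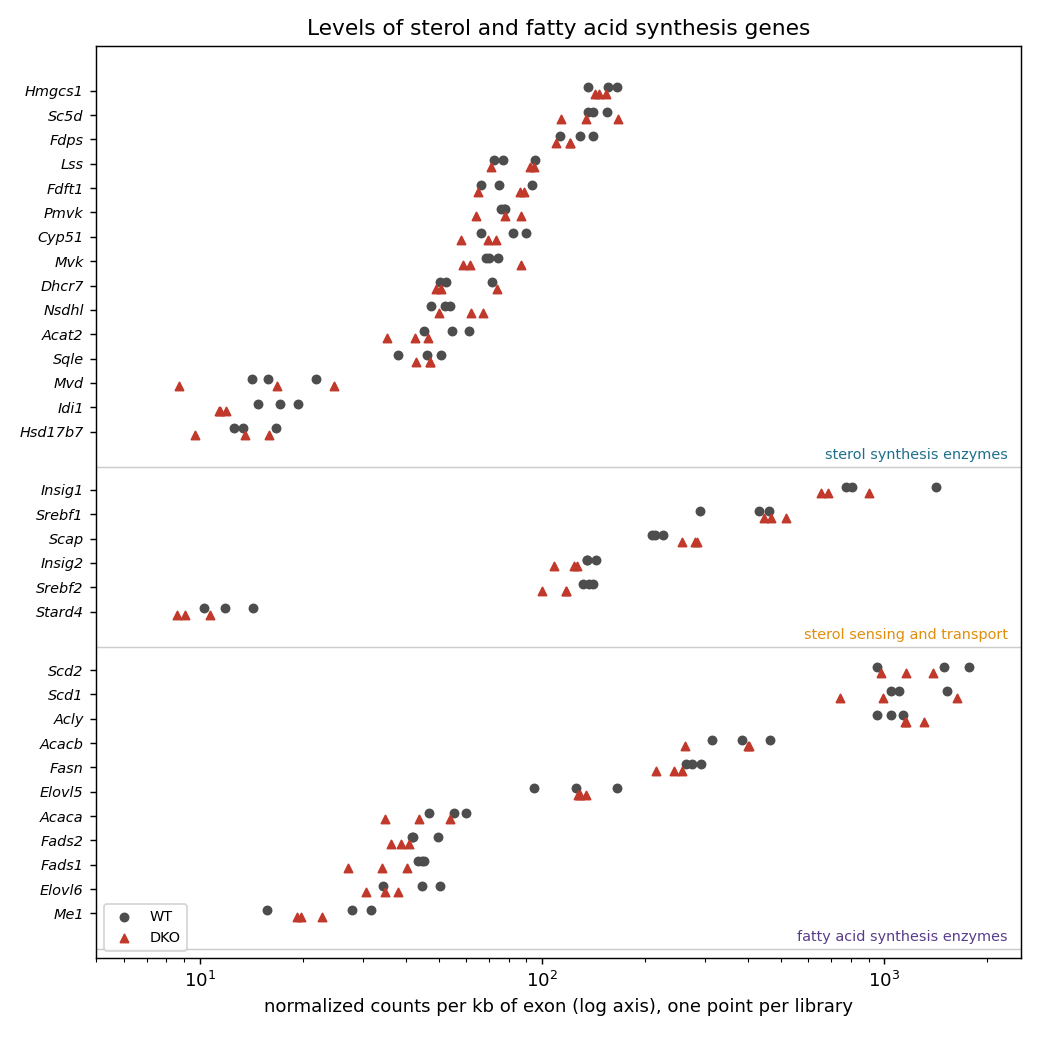
Normalized counts per kb of exon (x axis, log scale) of the 32 members (y axis), 1 point per library, circles for WT and triangles for DKO, grouped by role and sorted by level. Scd2, Scd1 and Acly lie highest and Stard4 lowest, and the WT and DKO points of most genes are interleaved.

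Scap encodes the sterol-sensing escort that carries SREBPs to the Golgi (ENSMUSG00000032485.14, chr9:110333288-110384950, + strand). It had normalized counts of 1563, 1685 and 1598 in WT 1, 4 and 5 and of 1905, 2089 and 2116 in DKO 1, 4 and 5. Every DKO library was above every WT library, and the libraries within each group were close. The log2 fold change was 0.33 with a standard error of 0.10 (DESeq2 adjusted p = 0.0214). The adjusted p was 0.160 by edgeR's quasi-likelihood test and 0.199 by limma-voom, and under total-count scaling the log2 fold change was 0.10 (DESeq2 adjusted p = 0.578). The DESeq2 adjusted p was 0.211 without WT 1, 0.191 without WT 5, 0.0678 without DKO 4 and 0.169 without DKO 5, so the call was lost without any of these 4 libraries. Calls over all rows also fell without each of them. With each of the 6 libraries left out, the log2 fold change of Scap was 0.31 to 0.38. An annotated antisense gene, 5830462I19Rik, covers 13.2% of the Scap exons, and its row had 0 counts. The libraries did not keep strand, so that row does not show which gene the reads in the shared stretch came from.

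Srebf2, which encodes SREBP-2, lay on the other side (ENSMUSG00000022463.8, chr15:82147181-82205379, + strand). It had normalized counts of 946, 1013 and 983 in WT and of 843, 718 and 846 in DKO. The groups did not overlap, and DKO 4 was the lowest library. The log2 fold change of -0.29 (SE 0.11) had an unadjusted p of 0.0108 and a DESeq2 adjusted p of 0.154, so it was not called.

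Srebf1, which encodes SREBP-1a and SREBP-1c, had normalized counts of 2427, 2587 and 1634 in WT and of 2917, 2503 and 2628 in DKO. WT 5 stood below the other 5 libraries, and the groups overlapped. The log2 fold change was 0.28 (adjusted p = 0.454 by DESeq2, SE 0.16), and 0.099 without WT 5. Its exons overlap those of Rai1 on the other strand over 1.93% of their length, and the libraries did not keep strand.

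The INSIG genes encode the proteins that hold SCAP in the endoplasmic reticulum. Insig1, itself an SREBP target, had normalized counts of 2495, 4368 and 2385 in WT and of 2023, 2117 and 2798 in DKO. WT 4 was far above the other 5 libraries, which overlapped, and the log2 fold change of -0.41 had a standard error of 0.34 (DESeq2 adjusted p = 0.695). Without WT 4 the log2 fold change of Insig1 was -0.076. Insig2 had normalized counts of 470, 500 and 470 in WT and of 430, 440 and 377 in DKO. Its groups did not overlap, but the gap was small, and the log2 fold change of -0.21 (SE 0.13) had a DESeq2 adjusted p of 0.535. Stard4, a soluble sterol carrier, had normalized counts of 80.2, 57.7 and 66.3 in WT and of 59.8, 48.1 and 50.7 in DKO. DKO 1 lay above WT 4, so the groups overlapped, and the log2 fold change was -0.36 (adjusted p = 0.690 by DESeq2, SE 0.29).

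**Figure D3:**
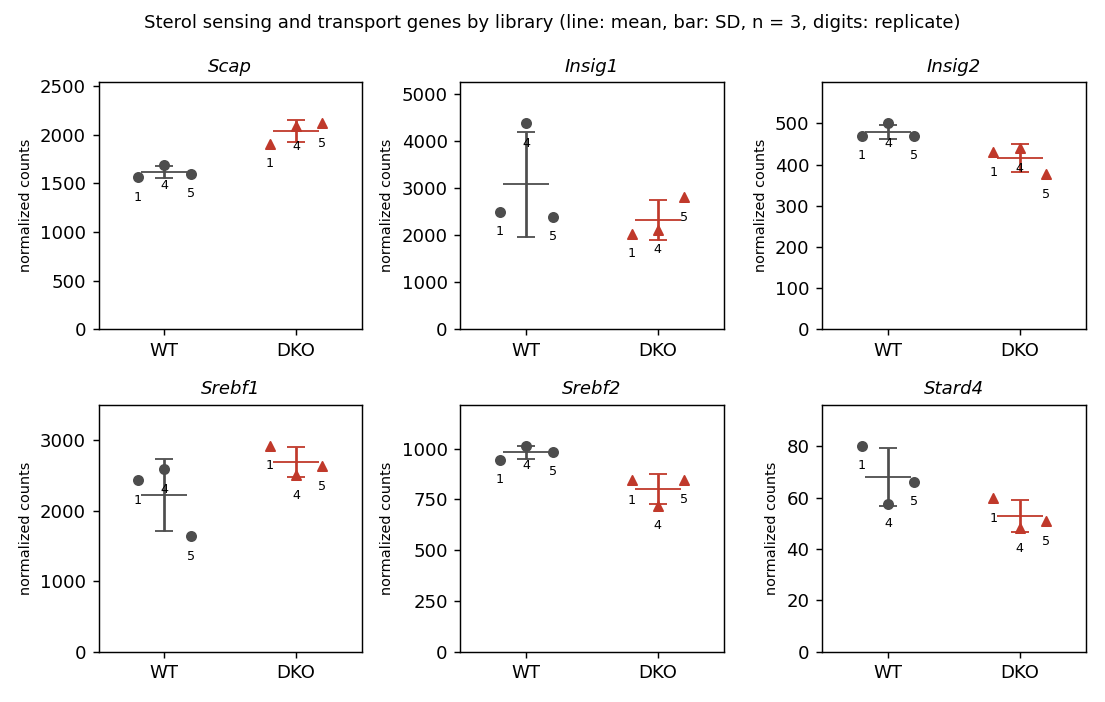
Normalized counts (y axis, from 0) of the 6 sterol sensing and transport genes in each library, circles for WT and triangles for DKO, with digits for the replicate number, a line for the mean and a bar for the SD (n = 3). Scap lies higher and Srebf2 and Insig2 lie lower in all DKO libraries, and Insig1 has 1 high WT library.

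Ratios of 2 genes' raw counts within a library do not depend on how libraries are scaled. There were 8 such ratios computed, chosen after the values above were seen, and they are given without a test. Scap to Srebf2 was 1.65, 1.66 and 1.62 in WT and 2.26, 2.91 and 2.5 in DKO. The WT libraries were nearly equal and every DKO library was higher, by 0.63 in mean log2 ratio, and by 0.53 to 0.71 with each library left out in turn. That lack of overlap follows from the values above, as Scap was higher and Srebf2 lower in every DKO library. Leaving libraries out cannot undo it. Srebf1 to Srebf2 was 2.57, 2.55 and 1.66 in WT and 3.46, 3.49 and 3.10 in DKO. Here too the groups did not overlap, with a difference of 0.59 in mean log2 ratio, and of 0.39 to 0.70 with each library left out. Scap to Insig2 was 3.32, 3.37 and 3.40 in WT and 4.43, 4.75 and 5.61 in DKO, a difference of 0.54. The lack of overlap again follows from the genes' own values, as Insig2 was lower in every DKO library. Scap to Insig1 was 0.63, 0.39 and 0.67 in WT and 0.94, 0.99 and 0.76 in DKO, a difference of 0.71 without overlap. WT 4, where Insig1 was far above the other libraries, had the lowest ratio. For the 2 ratios to the INSIG genes, libraries were not left out in turn. The groups overlapped for the other 4 ratios, with differences in mean log2 ratio of 0.03 for Scap to Srebf1, -0.16 for Insig1 to Insig2, 0.04 for Scd1 to Scd2 and -0.17 for Acaca to Acacb.

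**Figure D4:**
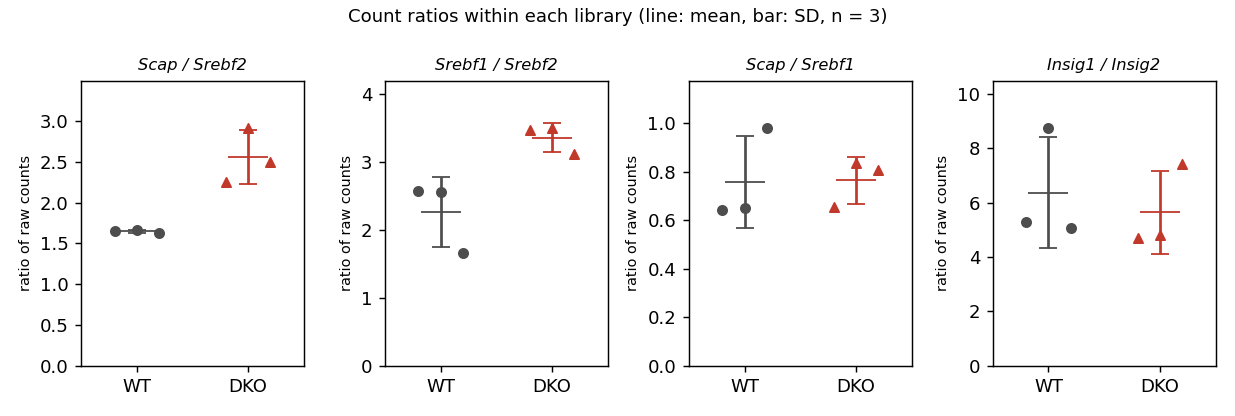
Ratio of raw counts within each library (y axis) for pairs of sterol sensing and transport genes, circles for WT and triangles for DKO. The pairs are Scap to Srebf2, Srebf1 to Srebf2, Scap to Srebf1 and Insig1 to Insig2. The Scap to Srebf2 ratio is 1.62 to 1.66 in WT and 2.26 to 2.91 in DKO, a separation that follows from the levels of both genes.

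None of the 15 sterol synthesis enzymes was called by DESeq2, edgeR or limma-voom. At an unadjusted p under 0.05 DESeq2 gave 0, beside 12.2% of all rows, and edgeR gave 1, Idi1 (6.67%, beside 15.0%). The median log2 fold change of the 15 was -0.04, with 11 below 0 (73.3%, beside 49.8% of all rows). Hmgcs1, which makes HMG-CoA at the head of the mevalonate pathway, had normalized counts of 628, 761 and 717 in WT and of 709, 675 and 658 in DKO. The groups were interleaved, and the log2 fold change was -0.04 (95% interval -0.28 to 0.19, DESeq2 adjusted p = 0.945). In this fit the interval lay inside a 1.5-fold change. Under total-count scaling the log2 fold change of Hmgcs1 was -0.27 (DESeq2 adjusted p = 0.179).

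Acat2, which condenses acetyl-CoA in the step before it, had a log2 fold change of -0.37 (DESeq2 adjusted p = 0.503). The kinases of mevalonate and phosphomevalonate, Mvk and Pmvk, had -0.04 and -0.02. Mvd, the decarboxylase that yields isopentenyl diphosphate, had -0.04 with the widest error of the members (SE 0.45). Its counts ran from 16.1 to 46.0 in DKO, a 2.85-fold spread within the group.

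Idi1, the isomerase of isopentenyl diphosphate, had the lowest fold change of the members and is described for that reason, after its values were seen. It had normalized counts of 60.4, 51.8 and 68.1 in WT and of 39.8, 41.8 and 40.4 in DKO. All DKO libraries lay below all WT libraries at a low count, and the log2 fold change of -0.56 (SE 0.31) had a DESeq2 adjusted p of 0.417. Fdps, which builds farnesyl diphosphate, had a log2 fold change of -0.12.

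In the branch from squalene to cholesterol, Fdft1 (squalene synthase) had a log2 fold change of 0.03, Sqle (squalene epoxidase) 0.02 and Lss (lanosterol synthase) 0.08. Of the enzymes that trim lanosterol, Cyp51 (the 14-demethylase) had -0.25, Nsdhl 0.22, Hsd17b7 -0.12, Sc5d -0.06 and Dhcr7, the last reductase of its branch, -0.005. For these 8 genes the groups overlapped and the DESeq2 adjusted p was 0.595 or more. Counts of several of these enzymes are uncertain where annotated genes share exon sequence. For Fdft1, 18.3% of its exon length overlaps Ctsb on the opposite strand, a row with 18810 counts over the 6 libraries. Cyp51 shares 3.76% of its exon length with Akap9 in the same way. Fdps shares 26.7% of its exon length with Gm43738 on the same strand, and Hmgcs1 12.1% and Idi1 9.22% with Gm48342 and Gm48574 on the opposite strand, and none of these 3 partners had a row in the count table.

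None of the 11 fatty acid synthesis enzymes was called by DESeq2, edgeR or limma-voom. At an unadjusted p under 0.05, DESeq2 gave 2 (18.2%, beside 12.2% of all rows), Fasn and Fads1, both with a log2 fold change below 0. By edgeR there was 1 (9.09%, beside 15.0% of all rows). The median log2 fold change was -0.22, with 9 of 11 below 0 (81.8%, beside 49.8% of all rows). Acly had normalized counts of 5539, 6007 and 5022 in WT and of 6104, 6880 and 6052 in DKO. Every DKO library was above every WT library, the lowest DKO by a small margin, and the log2 fold change of 0.20 (SE 0.10) had a DESeq2 adjusted p of 0.364.

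Fasn, the multienzyme that builds palmitate, had normalized counts of 2995, 3194 and 2889 in WT and of 2801, 2653 and 2355 in DKO. All DKO libraries lay below all WT libraries, opposite to Acly, and the log2 fold change of -0.22 (SE 0.10) had a DESeq2 adjusted p of 0.286. Between them in the pathway stand the acetyl-CoA carboxylases. Acacb, the form at the mitochondrial surface, had normalized counts of 3026, 4481 and 3703 in WT and of 3846, 2527 and 3879 in DKO. The groups were interleaved, with WT 4 highest and DKO 4 lowest (log2 fold change -0.13, DESeq2 adjusted p = 0.865). Acaca, the cytosolic form, had a log2 fold change of -0.29 (DESeq2 adjusted p = 0.465). Me1, the cytosolic malic enzyme that yields NADPH, also had -0.29, with a 2.01-fold spread within WT, and had -0.088 without WT 1.

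Scd1 had normalized counts of 5402, 7456 and 5113 in WT and of 7954, 3625 and 4845 in DKO. Both the highest and the lowest library were DKO, and the log2 fold change of -0.13 had a standard error of 0.37. Scd2 had normalized counts of 8157, 9663 and 5217 in WT and of 7606, 5339 and 6335 in DKO. WT 5 was the lowest of the 6 and WT 4 the highest, and the log2 fold change was -0.26 (adjusted p = 0.642 by DESeq2, SE 0.19), and -0.056 without WT 4. Stearoyl-CoA desaturase genes resemble each other in sequence, and how the counting treated reads that fit both is not given in the sources used here.

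Fads1, the delta-5 desaturase of polyunsaturated fatty acids, is described after its values were seen, as its groups did not overlap. It had normalized counts of 210, 217 and 215 in WT and of 194, 131 and 164 in DKO. The WT libraries were nearly equal and all DKO libraries were lower, with a log2 fold change of -0.39 (adjusted p = 0.336 by DESeq2, SE 0.19). Fads2, the delta-6 desaturase, had 138 to 164 normalized counts in WT and 119 to 135 in DKO (log2 fold change -0.21, DESeq2 adjusted p = 0.764). The elongases Elovl5 and Elovl6 had log2 fold changes of 0.02 and -0.32, and the groups overlapped for both.

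No library was the highest or the lowest for most members. WT 4 was the highest of the 6 libraries for 10 members and WT 1 for 9, while DKO 4 was the lowest for 9 and DKO 1 for 8. Scaled by total counts, DESeq2 called 0 members higher and 4 lower (12.5%, beside 7.91% of all rows in either direction). Those were Insig1 (log2 fold change -0.64, DESeq2 adjusted p = 0.0120), Insig2 (-0.44, 0.0352), Srebf2 (-0.52, 0.00607) and Fasn (-0.45, 0.00905). The median of all rows moved to -0.23 under that scaling.

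Fat cells make the same enzymes, so their markers were read beside the members. Of 12 fat cell genes, Adipoq, Plin1, Cidec and Lep had at most 4 counts in any library, and Retn at most 1. Cidea had at most 5 and Cfd at most 6. Pck1 had 34 raw counts in WT 5 and at most 6 in any other library. Plin4, Fabp4, Lipe and Lpl, which other cells also express, made up nearly all of the summed level of 1114 to 1386 normalized counts in WT and 930 to 1273 in DKO. The ranges overlapped, and 0 of the 7 fat cell genes tested were called by DESeq2, edgeR or limma-voom. At an unadjusted DESeq2 p under 0.05 there was 1 (14.3%, beside 12.2% of all rows).

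Beyond the 32 members, 68 other lipid genes were listed by role, of which 67 had a row and 64 were tested. DESeq2 called 4 (6.25%, beside 2.90% of all rows), 2 higher and 2 lower, and their median log2 fold change was 0.00. Neither edgeR nor limma-voom called any, and 11 had an unadjusted DESeq2 p under 0.05 (17.2%, beside 12.2% of all rows). Of the 10 genes of cholesterol uptake, storage and efflux 2 rose and 1 fell, and of the 12 genes of acyl-CoA synthesis and glycerolipid assembly 1 fell. None of 8 other sterol enzymes, 11 other regulators, 15 other fatty acid enzymes or 8 genes of NADPH supply was called by any of these tools. At an unadjusted DESeq2 p under 0.05 there were 0 in the first 3 of those lists and 4 of the 8 NADPH genes, 1 higher and 3 lower.

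Vldlr, the receptor for very low density lipoprotein, had normalized counts of 307, 444 and 367 in WT and of 467, 656 and 745 in DKO. Each DKO library was above each WT library, with a log2 fold change of 0.74 (adjusted p = 0.00862 by DESeq2, SE 0.19, edgeR 0.160), and the adjusted p was 0.187 without WT 1, 0.134 without WT 5, 0.132 without DKO 4 and 0.208 without DKO 5. Soat1, which esterifies cholesterol for storage, had normalized counts of 2411, 2804 and 3289 in WT and of 3327, 4823 and 3715 in DKO. DKO 1 was only just above WT 5, and the log2 fold change of 0.48 (SE 0.15) had a DESeq2 adjusted p of 0.0496, close to the threshold. Without WT 1, WT 4, WT 5, DKO 4 or DKO 5 that value was 0.472, 0.160, 0.0561, 0.354 and 0.184.

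Lipa, the lysosomal acid lipase that frees cholesterol from its esters, had normalized counts of 229, 167 and 241 in WT and of 142, 120 and 142 in DKO. All DKO libraries were lower, with a log2 fold change of -0.66 (adjusted p = 0.0448 by DESeq2, SE 0.21, edgeR 0.159). Its DESeq2 adjusted p was 0.354 without WT 1, 0.417 without WT 5, 0.0769 without DKO 1, 0.243 without DKO 4 and 0.170 without DKO 5. Lpin1, a phosphatidate phosphatase of triglyceride synthesis, had normalized counts of 2470, 2900 and 2614 in WT and of 1965, 2099 and 1899 in DKO. The groups were well apart, with a log2 fold change of -0.42 (adjusted p = 0.00340 by DESeq2, SE 0.10, edgeR 0.147), and 1 omission, that of DKO 5, took the adjusted p past the threshold, to 0.0703.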

How the data were processed

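RNA from SMGs was made into unstranded Nextera XT libraries and sequenced on a HiSeq2500 by the authors. The deposited unfiltered table holds raw read counts per gene symbol, made by the authors; the submitters' processing notes name STAR 2.5.2a, DESeq2, edgeR and limma, and the builds GRCm38, mm10 and GRCh38. The counting tool and annotation are not given in the sources used here. The deposited filtered and scaled tables were not used. No column lacked a sample.

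Rows whose sum over the 6 libraries reached 10 counts were fitted with DESeq2 1.42.0 (R 4.3.3): the Wald test (two-sided) with size factors by median of ratios, alpha 0.1 for independent filtering, unshrunken log2 fold changes, and Benjamini-Hochberg adjusted p under 0.05 over all rows tested. Intervals are the estimate plus or minus 1.96 SE. Alternatives were edgeR 4.0.16 (quasi-likelihood), limma-voom 3.58.1, TMM factors, total counts, other count filters, a replicate block and each library left out. Exon lengths (all annotated exons of a gene merged) and coordinates came from GENCODE on GRCm38, matched by symbol.

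The members and lists were chosen with earlier results of these data known. A value in every library is given for members called, the 6 sensing and transport genes and 6 further members of highest level per kb; of the other lipid genes, for those called. Idi1 and Fads1 were added after their values were seen. Marker lists covered fat cell, acinar, duct, myoepithelial, fibroblast and endothelial, lymphocyte and macrophage, skeletal muscle, and sebaceous and keratinising epithelium genes.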

Additional observations from a re-analysis of the deposited data

How the results depend on the processing

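With 3 libraries a group, the calls rest on how the spread is estimated. By edgeR's quasi-likelihood test 5 genes were called higher and 5 lower over all rows, and by limma-voom 3 and 4. Both called 0 members and 0 other lipid genes in either direction. Total-count scaling called 62 genes higher and 1410 lower, 0 members higher and 4 lower, and 1 other lipid gene higher and 10 lower. It moved the median log2 fold change to -0.28 for sterol enzymes, -0.48 for sensing and transport and -0.45 for fatty acid enzymes, and turned the sign of Fdft1 (-0.20), Sqle (-0.22), Lss (-0.16), Nsdhl (-0.0034), Acly (-0.035) and Elovl5 (-0.23), none of them called. Without a count filter, or with at least 10 counts in at least 3 libraries, 1 other lipid gene was called higher, as Soat1 was no longer called. TMM factors changed no call of the members or of the 4 other lipid genes named.

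With each library left out, 56 to 306 genes were called higher and 90 to 574 lower, with 0 to 1 members higher and 0 to 0 lower, and with 0 to 2 other lipid genes higher and 0 to 2 lower. The all-gene count fell most without WT 1 (56 higher, 95 lower), WT 5 (59, 90), DKO 4 (68, 102) or DKO 5 (65, 101). The median log2 fold change ran from -0.072 (without WT 4) to -0.013 (without WT 5) for sterol enzymes, from -0.28 (without DKO 1) to -0.13 (without WT 4) for sensing and transport, and from -0.27 (without DKO 1) to -0.14 (without DKO 4) for fatty acid enzymes. Uncalled members whose sign turned had log2 fold changes of -0.12 to 0.019 (Hmgcs1), -0.23 to 0.058 (Mvk), -0.12 to 0.10 (Pmvk), -0.43 to 0.26 (Mvd), -0.071 to 0.18 (Fdft1), -0.083 to 0.12 (Sqle), -0.29 to 0.052 (Hsd17b7), -0.21 to 0.061 (Sc5d), -0.22 to 0.17 (Dhcr7), -0.26 to 0.047 (Acacb), -0.50 to 0.095 (Scd1) and -0.16 to 0.24 (Elovl5). The cause of these moves was not tested.

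The replicate numbers 1, 4 and 5 recur in both groups, but same-numbered libraries did not deviate together (r = -0.13, -0.02 and -0.26 across 11489 genes, which are not independent), and 0 of 6 libraries correlated best with its own number. With the replicate number as a block, DESeq2 called 134 genes higher and 209 lower, 0 members (Scap adjusted p = 0.158) and, of the other lipid genes, 2 higher and 1 lower. The block in edgeR's quasi-likelihood test called 44 higher and 84 lower, 0 members (Scap 0.192), and 1 other lipid gene higher and 0 lower.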
